A study of Saccharomyces cerevisiae with 18 samples.

Results

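The proteins of the large (60S) subunit of the cytosolic ribosome were examined as transcripts in a hybrid of 2 strains of budding yeast, Saccharomyces cerevisiae. Members were chosen by name. A transcript feature was a member if it held a gene whose symbol in the R64 reference annotation is RPL with a number and an optional A or B, RPP0, or RPP1 or RPP2 with A or B. The reference has 81 such genes, and 65 of the 4105 features in the tables of the single libraries held one of them. Of these, 61 were among the 3974 features of the table of the whole series, which was used for the main results. Of the 61, 39 held the ribosomal gene alone and 22 held other genes as well, so a value of the latter cannot be given to any one gene. For 16 genes no feature was present: RPL1B, RPL2A, RPL8A, RPL12A, RPL12B, RPL13B, RPL15A, RPL16B, RPL20A, RPL23B, RPL30, RPL32, RPL33B, RPL41A, RPL41B and RPL43A were not analysed here.

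The cells were 1 diploid hybrid, made by crossing BY4716 (BY), a laboratory strain, with RM11-1a (RM), a strain from a vineyard. Both parents had given it rpb1-1, an allele of the largest subunit of RNA polymerase II that fails at high temperature. Cells were grown in YEPD at 24 °C and brought to 37 °C by adding medium at 50 °C. Poly(A) RNA was taken from each of 3 independent cultures at 0 min and again after 6, 12, 18, 24 or 42 min, which gave 18 libraries. Every library came from the same genotype and went through the same shift, so loss of transcription and the response to heat cannot be told apart.

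The 60S subunit carries the peptidyl transferase centre, the tunnel through which the new chain leaves, and an acidic stalk that engages the elongation factors. Yeast encodes most of its proteins by a pair of near-identical genes, named A and B, and a minority by 1 gene. As background, these genes are among the most strongly transcribed in growing cells, their promoters are bound by Rap1 together with Fhl1, Ifh1, Sfp1 and Hmo1, and their transcription falls when cells are stressed.

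Each value counts allelic reads, that is, reads that a single-nucleotide variant (SNV) assigned to BY or to RM. The members held 344 SNVs, with a median of 3 per feature, and 15 features had 1 SNV each. They held 349827 of 13626796 allelic reads. Library totals lay between 439453 and 1180513, apart from culture 3 at 18 min with 74320. Levels are given as CPM, allelic reads of a feature scaled to the library total, a share of the poly(A) pool and not an amount per cell. They were not compared between genes, since the number of SNVs differs. A fall of a transcript and a rise of the rest of the pool cannot be told apart.

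The members as a group took a smaller share of the pool with time. They made up 3.43% ± 0.227 of allelic reads at 0 min, 3.29% ± 0.140 at 6 min, 2.97% ± 0.126 at 12 min, 2.27% ± 0.261 at 18 min, 1.86% ± 0.244 at 24 min and 1.37% ± 0.293 at 42 min (SD, n = 3). The lowest library at 0 min held 3.25% and the highest at 42 min 1.61%, so the groups did not overlap. Little of this was seen in the first 6 min.

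Of the 61 members, 46 had a mean of at least 20 reads per library and were tested for a change of level against 0 min by edgeR's quasi-likelihood test, with p-values adjusted by Benjamini and Hochberg over 2840 features and a threshold of 0.05. The 15 not tested held from 44 to 343 reads over all libraries. At 6 min 3 members passed, 2 higher and 1 lower, against 34.9% of all features (17.6% higher and 17.3% lower). At 12 min 8 passed, 3 higher and 5 lower, against 54.6% (27.8% and 26.8%). A smaller share of the members than of features in general had passed by these times. At 6 min 1 member passed with DESeq2 and 1 without culture 2. At 12 min 5 passed without culture 2, and 13 (8 higher and 5 lower) with culture as a block. Those gained with the block, all higher, were RPP1A, RPL29/MIN10, RPL2B, RPL25 and RPL1A. Shares of all features called are given for the main fit only, here and below, so counts from other fits have no background beside them.

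The lower calls came later. At 18 min 3 members were higher and 20 lower, against 60.4% of all features (29.8% higher and 30.6% lower). At 24 min 4 were higher and 30 lower, against 66.3% (33.0% and 33.4%). At 42 min 3 were higher and 35 lower, against 76.3% (37.2% and 39.0%). The share of members called lower at 42 min was therefore well above the background, and the share called higher well below it. Without culture 2, 11 members passed at 18 min, and without the shallow library of 18 min 21 did.

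The median log2 change of the 46 members was 0.08 at 6 min, -0.02 at 12 min, -0.32 at 18 min, -0.71 at 24 min and -0.98 at 42 min. For all features it was 0.01, -0.01, -0.03, -0.01 and -0.05. The members were also closer to each other than features in general, with an SD of 0.82 among them at 42 min against 1.66. Among tested features with small-subunit (RPS) genes the SD was 0.68. These changes were scaled by TMM factors. On plain library totals, chosen as an alternative after seeing the data, the medians at 42 min were -1.29 and -0.37, and 3 members were higher and 38 lower.

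**Figure D1:**
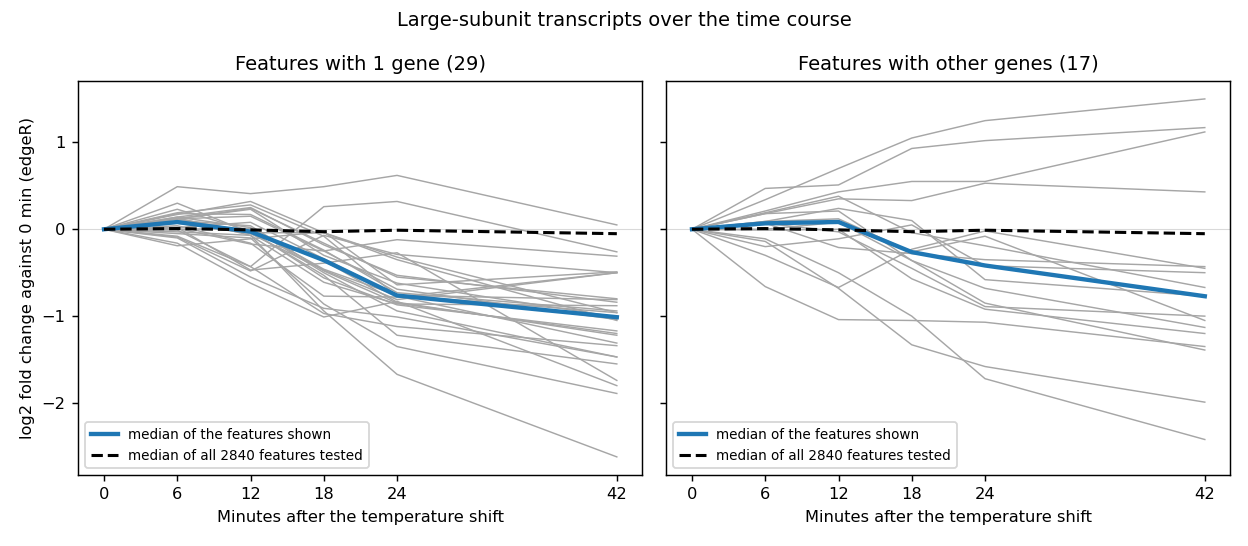
log2 fold change of each tested member against 0 min (vertical axis) at each time in minutes (horizontal axis), for 29 features with 1 gene (left) and 17 with other genes (right). Thin lines are members, the thick line is their median and the dashed line is the median of all 2840 features. The medians of the members stay near 0 to 12 min and fall from 18 min, and the 3 features that were higher at 42 min are all in the right panel.

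The calls at 42 min were also counted by kind of feature, beside 39.0% lower and 37.2% higher among all features. Of the 29 tested features with the ribosomal gene alone, 24 were lower at 42 min, with log2 changes from -2.62 to -0.50, and the other 5 did not pass. All 3 features that were higher at 42 min were among the 17 that also held another gene. Of these 17, 11 were lower and 3 did not pass. Among the 24 tested features with small-subunit (RPS) genes, 16 were lower and 1 higher at 42 min, with a median log2 change of -0.88. Neither the difference between both kinds of feature nor that between the subunits was tested.

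Stalk proteins form the flexible arm that binds elongation factors. Of their 4 tested features 3 were lower and 1 higher at 42 min. Among all features 39.0% were lower and 37.2% higher at that time. RPP1A (chromosome IV, 309802 to 310122, R64) had 1023, 895 and 735 CPM at 0 min and 537, 480 and 353 CPM at 42 min in cultures 1 to 3. The groups did not overlap, and the log2 change was -0.96 ± 0.15 (edgeR adjusted p = 1.1e-05). The ± of a log2 change stands in for a standard error and was computed as the change over the root of F. RPP1B, the other P1 gene, went from 49.5, 30.1 and 61.1 CPM to 20.9, 18.3 and 28.6 CPM, a log2 change of -1.05 ± 0.31. The lowest library at 0 min was just above the highest at 42 min.

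RPP2B, a P2 gene, shares its feature with NKP1, a kinetochore gene. This feature fell from 78.9, 83.7 and 83.2 CPM to 43.6, 40.2 and 36.1 CPM, a log2 change of -1.05 ± 0.18. The feature of RPP2A, the other P2 gene, also holds YOL038C-A. It rose from 41.5, 64.9 and 49.4 CPM to 125, 117 and 112 CPM, a log2 change of 1.17 ± 0.17 (edgeR adjusted p = 6.27e-06). Its call at 6 min (0.47 ± 0.18) was lost with DESeq2 (adjusted p = 0.079) and with any of the 3 cultures left out (edgeR adjusted p from 0.0764 to 0.29). All 3 of its SNVs with at least 50 reads at 0 and 42 min together were higher at 42 min. RPP0, the base of the stalk, was not in the table of the whole series.

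RPL5 and RPL11 bind the 5S ribosomal RNA. RPL5, encoded once (XVI, 303121 to 304014), fell from 2292, 2124 and 1932 CPM to 1108, 1284 and 755 CPM, a log2 change of -1.01 ± 0.14 (edgeR adjusted p = 3.46e-06). It had 1 SNV, with 25443 reads. RPL11B, one of the pair of RPL11 genes, changed by -0.50 ± 0.19 (edgeR adjusted p = 0.0262), and its libraries at 0 and 42 min overlapped. The call was lost without culture 2 (-0.42, edgeR adjusted p = 0.189). Its coding sequence is 97.0% identical to that of RPL11A, and 60.9% of its 50-base stretches occur elsewhere in the genome, so its value is uncertain.

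Proteins around the exit of the tunnel contact the growing chain and the factors that receive it. Of 9 tested features with their genes, 8 were lower and 1 higher at 42 min. Of all features 39.0% were lower and 37.2% higher, and of the 46 members 35 were lower and 3 higher. RPL25, which receives the signal recognition particle and is encoded once (XV, 80348 to 81190), fell from 2425, 2088 and 1814 CPM to 1470, 1256 and 900 CPM. The groups did not overlap (-0.80 ± 0.15, edgeR adjusted p = 8.9e-05). At 12 min its log2 change was 0.24 and did not pass, but it passed with culture as a block (0.25, edgeR adjusted p = 0.0303).

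RPL19A, whose product also bridges to the small subunit, shares a feature with MIS1, a mitochondrial folate enzyme gene. This feature had one of the largest falls, from 670, 818 and 774 CPM to 150, 177 and 98.2 CPM. The change was -2.42 ± 0.14 (edgeR adjusted p = 2.45e-11), and it was -0.50 at 12 min, a call lost without culture 2 (-0.41, edgeR adjusted p = 0.0659). Its 12 SNVs with at least 50 reads were all lower at 42 min, by -3.82 to -0.06 on the log2 scale. RPL35A, another gene of this group, lies in a feature with UFD2, a ubiquitin ligase gene. This feature rose from 494, 503 and 417 CPM to 1064, 912 and 1085 CPM (1.12 ± 0.10, edgeR adjusted p = 1.32e-08).

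The single-gene feature of RPL35B, whose coding sequence is 99.2% identical to that of RPL35A, went the other way. It fell from 645, 597 and 558 CPM to 465, 437 and 374 CPM (-0.50 ± 0.12, edgeR adjusted p = 0.00076). The coding sequences of the pair share an identical run of 302 bases. Which gene of the feature RPL35A/UFD2 rose was not tested. All 14 of its SNVs with at least 50 reads were higher at 42 min.

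RPL40A and RPL40B encode ubiquitin fused to a ribosomal protein, from which ubiquitin is cut off. Both tested features fell. RPL40B (XI, 617996 to 618750) had 226, 247 and 231 CPM at 0 min and 66.2, 81.7 and 42.3 CPM at 42 min, a log2 change of -1.89 ± 0.17 (edgeR adjusted p = 7.59e-09). The feature RPL40A/SLN1, which also holds an osmosensor kinase gene, was the 1 member called lower at 6 min, by -0.66 ± 0.11 (edgeR adjusted p = 7.63e-05). It stood at -1.04 by 12 min and at -1.35 by 42 min. With all SNVs of the tables of single libraries it was not called at 6 min (-0.01, edgeR adjusted p = 0.963) or at 12 min (0.08, 0.604).

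RPL10, RPL24 and RPL29 join the subunit late, in the cytoplasm. RPL24A, RPL24B and the feature RPL29/MIN10 all fell. RPL29/MIN10 had 486, 373 and 325 CPM at 0 min and 314, 239 and 191 CPM at 42 min, without overlap (-0.67 ± 0.17, edgeR adjusted p = 0.00172). RPL10/YLR076C had 219 reads and was not tested. Its libraries overlapped, with 18.7, 22.6 and 10.3 CPM at 0 min and 3.48, 14.6 and 4.97 CPM at 42 min.

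RPL3 lies beside the peptidyl transferase centre and is encoded once. Its feature also holds YNG1, a subunit of a histone acetyltransferase. It fell from 2869, 2563 and 2203 CPM to 1319, 1319 and 857 CPM (-1.13 ± 0.15, edgeR adjusted p = 1.24e-06). RPL38, encoded once, shares a feature with PEX30, a gene of peroxisome biogenesis. That feature had the largest rise of the 46 members, from 147, 154 and 161 CPM to 434, 362 and 512 CPM, a log2 change of 1.50 ± 0.12 (edgeR adjusted p = 9.08e-10). All 6 of its SNVs with at least 50 reads were higher at 42 min. It was also called higher at 6 min (0.34 ± 0.12), a call that was lost with DESeq2 (adjusted p = 0.0502), on plain library totals (edgeR adjusted p = 0.103) and without culture 1 (0.22) or culture 2 (0.15). The tunnel protein gene RPL39, in a feature with YJL188C, held 201 reads and was not tested. It had 9.36, 22.6 and 16.9 CPM at 0 min and 10.5, 8.53 and 8.70 CPM at 42 min.

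Among the remaining members the feature FLX1/RPL16A, which also holds a mitochondrial carrier gene, fell from 2881, 2391 and 2384 CPM to 615, 857 and 459 CPM (-1.99 ± 0.16, edgeR adjusted p = 2.08e-09). It was at -0.68 by 12 min. RPL22B, with 505 reads, fell from 41.5, 46.1 and 66.3 CPM to 12.2, 24.4 and 7.46 CPM (-1.80 ± 0.38, edgeR adjusted p = 0.000283). These values were less precise than those of deeper members. At the other end, YMR193C-A/RPL36A had 29.4, 22.6 and 29.5 CPM at 0 min and 45.3, 36.6 and 29.8 CPM at 42 min. Its log2 change of 0.43 ± 0.28 did not pass (edgeR adjusted p = 0.163).

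The other features with tested values mostly fell as well. RPL8B/YLL044W changed by -1.39 ± 0.11, RPL13A by -1.34 ± 0.13, RPL1A, of the mobile stalk at the exit site, by -1.31 ± 0.16 and RPL23A by -1.22 ± 0.28. RPL1A had 1 SNV and is 99.4% identical to RPL1B in coding sequence. Of its 50-base stretches 81.0% occur elsewhere in the genome, so its value is uncertain. RPL4B and CDS1/RKM3/RPL4A, whose proteins line the tunnel, both changed by -1.20. The coding sequences of this pair are 98.9% identical and 72.7% of their 50-base stretches occur elsewhere in the genome, so both values are uncertain. RPL34B, RPL26A, RPL2B, RPL37A and RPL7A/snR39 lay between -0.94 and -0.77, YBR190W/RPL21A/YBR191W-A was just below them at an adjusted p of 3.29e-06 (edgeR), and LCD1/RPL37B was at -0.50 ± 0.22 with overlapping libraries (edgeR adjusted p = 0.0447). That call was lost with DESeq2 (adjusted p = 0.063) and without culture 2 (edgeR adjusted p = 0.178) or culture 3 (0.3). RPL22A/YLR062C (-0.45 ± 0.37) and RPL33A/YPL142C (-0.43 ± 0.35) did not pass. RPL18B went from 41.5, 41.4 and 39.8 CPM to 33.1, 32.9 and 36.1 CPM. Its groups did not overlap, but the change of -0.26 ± 0.18 passed only on plain library totals (-0.58, edgeR adjusted p = 0.00743).

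The 15 features that were too shallow to test were RPL6A, RPL6B, RPL14B, RPL15B, RPL19B, RPL20B, RPL21B, RPL26B, RPL34A, RPL43B and those of RPL7B, RPL10, RPL11A, RPL31B and RPL39. The libraries of 0 and 42 min did not overlap in RPL6A, RPL15B, RPL20B, RPL43B and DUS4/RPL31B, which were lower at 42 min. Nor did they in RPL21B (1.34, 2.82 and 2.95 CPM, then 10.45, 4.87 and 6.22 CPM) and SNT309/RPL11A, which were higher. In the rest they overlapped. These values rest on few reads, and overlap was not counted over all features.

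**Figure D2:**
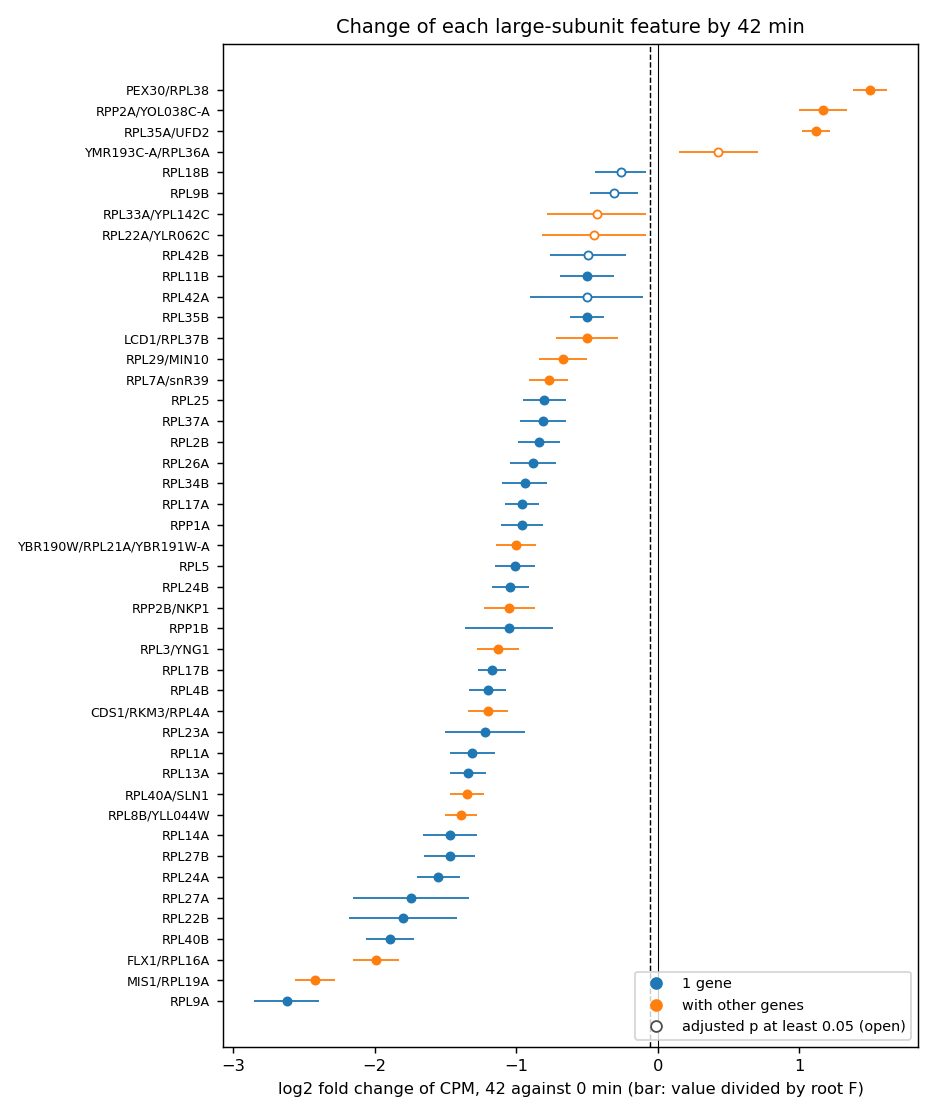
log2 fold change of 45 of the 46 tested members at 42 against 0 min (horizontal axis), ordered by value. Bars extend on either side by the change over the root of F, filled points passed the threshold, and colour separates features with 1 gene from those with other genes; the dashed line is the median of all features. RPL9A is lowest at -2.62 and PEX30/RPL38 highest at 1.50.

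RPL9A (VII, 227754 to 228329, minus strand), which encodes a protein near the site where factors bind, had the largest fall of the 46 members. It had 1289, 1064 and 1051 CPM at 0 min, 640, 616 and 425 CPM at 18 min and 171, 283 and 98.2 CPM at 42 min. The log2 change at 42 min was -2.62 ± 0.23 (edgeR adjusted p = 5.7e-09). Its partner RPL9B (XIV, 499681 to 500256, plus strand) had 309, 292 and 283 CPM at 0 min and 244, 273 and 195 CPM at 42 min. The change of RPL9B was -0.31 ± 0.17 and did not pass (edgeR adjusted p = 0.111), although its libraries at both times did not overlap. It passed where only features with a mean of at least 100 reads were tested (-0.49, edgeR adjusted p = 0.0198) and on plain library totals (-0.62, 0.00589).

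Both RPL9 genes encode a protein of 191 residues from 1 coding exon, and their coding sequences are 93.8% identical. The first 150 coding bases, from the R64 genome, are shown because the copies diverged in level while this stretch differs at 9 positions. Capitals mark the bases that differ between the copies.
RPL9A: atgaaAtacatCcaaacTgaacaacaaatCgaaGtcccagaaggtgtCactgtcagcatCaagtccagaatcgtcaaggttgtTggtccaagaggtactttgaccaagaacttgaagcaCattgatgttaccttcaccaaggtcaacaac
RPL9B: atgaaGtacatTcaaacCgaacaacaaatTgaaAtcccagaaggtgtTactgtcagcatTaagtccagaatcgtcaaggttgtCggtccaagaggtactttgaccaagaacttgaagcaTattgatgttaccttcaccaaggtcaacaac

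A longest identical run of 110 bases in the coding sequences is more than the 50 bases of a read, and 14.0% of the 50-base stretches of each copy occur elsewhere in the genome. A single read from such a stretch cannot be placed on 1 copy by its own bases. The reads were pairs, and whether the other read of a pair could place it was not examined. The values of RPL9A rested on 2 SNVs with 5821 and 5188 reads, which changed by nearly the same amount (-2.94 and -2.86 on plain totals). Those of RPL9B rested on 1 SNV.

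In 6 pairs each copy had a feature of its own with enough reads, and the change of copy A was compared with that of copy B within each culture. The difference of log2 changes, RPL9A less RPL9B, was -2.57, -1.81 and -2.88 in cultures 1 to 3, with a mean of -2.42 ± 0.55 (SD, n = 3). The log2 ratio of the copies went from between 1.86 and 2.06 at 0 min to between -0.99 and 0.05 at 42 min. The exact two-sided permutation p was 0.1, the smallest that 3 libraries against 3 can give, and 0.3 after adjustment over the 6 pairs. This test can therefore not pass 0.05 for any pair, whatever its difference.

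RPL24, which bridges both subunits, was the other pair at this smallest p. RPL24A (VII, 437467 to 437934) fell from 706, 580 and 547 CPM to 221, 257 and 148 CPM, and RPL24B (VII, 787312 to 787779) from 1620, 1445 and 1258 CPM to 798, 732 and 567 CPM. The difference of log2 changes, A less B, was -0.65, -0.19 and -0.73, with a mean of -0.52 ± 0.29 (SD, n = 3; exact permutation p = 0.1). Of their first 120 coding bases 12 differ, which capitals mark, and over the whole coding sequence the copies are 92.5% identical.
RPL24A: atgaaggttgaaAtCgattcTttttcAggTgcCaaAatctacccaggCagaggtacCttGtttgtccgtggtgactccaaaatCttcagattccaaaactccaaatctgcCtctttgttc
RPL24B: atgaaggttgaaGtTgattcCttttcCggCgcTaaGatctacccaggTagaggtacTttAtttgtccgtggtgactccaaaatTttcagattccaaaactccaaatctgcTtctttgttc

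Of the other pairs 3 are given here, and the means of their differences were smaller in size. RPL17A, at 964, 922 and 804 CPM at 0 min and 444, 539 and 393 CPM at 42 min, and RPL17B, at 288, 258 and 266 CPM and then 117, 121 and 121 CPM, both fell. The difference of their changes was 0.20 ± 0.11 (SD, n = 3; exact permutation p = 0.3). This difference was smaller than the fall of either copy.

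RPL27A (30.8, 39.5 and 58.9 CPM, then 15.7, 15.8 and 8.70 CPM) and RPL27B (893, 784 and 810 CPM, then 263, 419 and 213 CPM) both fell. The difference of their changes was 0.83, -0.38 and -0.74 in cultures 1 to 3, so it changed sign between cultures. Its mean was -0.10 ± 0.83 (SD, n = 3, exact permutation p = 0.8). The values of single cultures were as large in size as those of the RPL24 pair.

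RPL42A went from 16.1, 38.6 and 38.3 CPM to 8.71, 30.5 and 26.1 CPM, and RPL42B from 30.8, 34.8 and 47.9 CPM to 20.9, 28.0 and 32.3 CPM. Neither change passed, and RPL42B did so on plain totals (-0.81, edgeR adjusted p = 0.0137). The pair differed by -0.09 ± 0.16 (SD, n = 3; exact permutation p = 0.8). Both copies of this pair held under 500 reads.

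**Figure D3:**
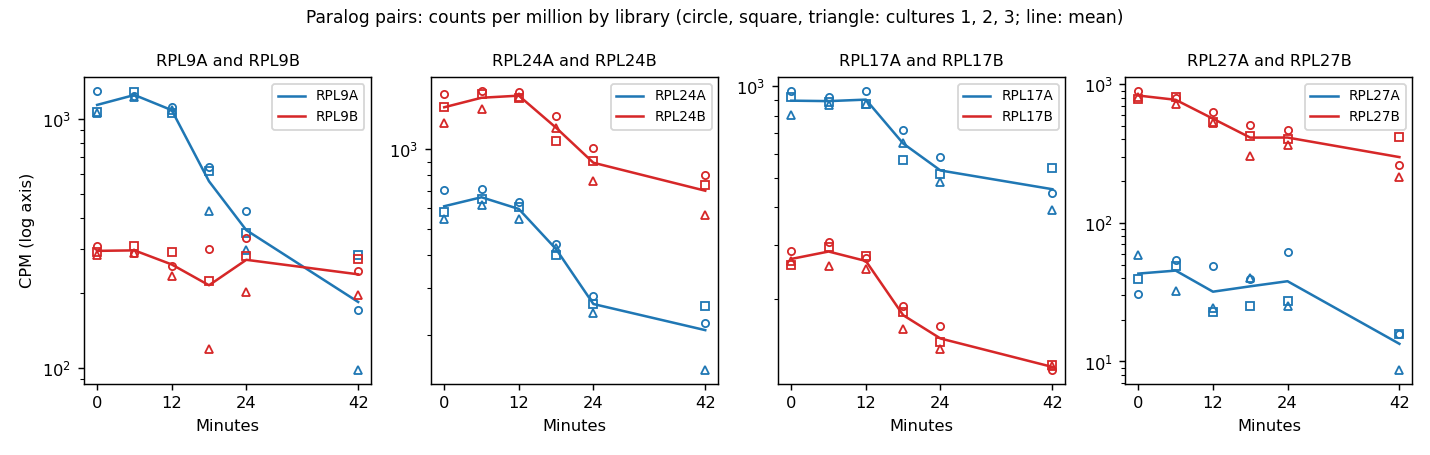
CPM by library (vertical log axis) against minutes (horizontal axis) for 4 paralog pairs, copy A in blue and copy B in red. Symbols are the 3 cultures and lines are means. RPL9A falls steeply from 18 min while RPL9B does so far less, and both copies of RPL24, RPL17 and RPL27 are lower at 42 min than at 0 min.

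Genes that act on these transcripts or proteins were counted from a list. Of 5 tested features with regulators of ribosomal protein promoters, 3 were lower at 42 min, against 39.0% of all features: RAP1 by -1.41 ± 0.15, FHL1 by -2.60 ± 0.28 and SFP1 by -0.27 ± 0.09. FHL1 held only 5, 9 and 7 reads at 42 min. YLR222C-A/IFH1 (-0.36 ± 0.20) and HMO1/RSM24 (-0.44 ± 0.20) did not pass. Of 3 tested features with dedicated chaperones of large-subunit proteins, SQT1/GAT4, which holds the partner of RPL10, was lower by -2.48 ± 0.21. UBC9/SYO1/YDL062W, which holds the gene that imports RPL5 with RPL11, was lower too (-5.58 ± 0.49). It held 0, 3 and 1 reads at 42 min, so the size of its change depends on the prior count. ACL4/NBP2, which holds the partner of RPL4, did not pass (0.21 ± 0.16). Each of the 3 holds other genes too, so these values cannot be given to the chaperone.

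The study's own question was whether transcripts of the BY and RM alleles are lost at different rates, seen as a BY share of reads that changes over time (allele-specific decay, ASD). Of 45 members tested, 1 was called, with a falling BY share, against 6.70% of 2808 features (3.63% rising and 3.06% falling). That member was RPL14A (XI, 431906 to 432720, plus strand, 2 coding exons). For 29 members the change of log2(BY/RM) over 42 min lay between -0.2 and 0.2. The median size of this change was 0.148 in the members and 0.175 in all 2808 features, so small changes were common in both.

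The BY share of RPL14A was 62.7%, 61.3% and 61.9% at 0 min in cultures 1 to 3. It was 60.0%, 62.9% and 60.6% at 6 min, 57.0%, 54.0% and 59.9% at 12 min, and 59.8%, 60.0% and 62.9% at 18 min. It was 51.3%, 60.8% and 55.0% at 24 min and 53.9%, 54.7% and 53.5% at 42 min. The groups at 0 and 42 min did not overlap, and the times between were uneven. Library depths for this gene ran from 35 reads (culture 3, 18 min) to 764.

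Over the course the BY share went from 62.0% ± 0.676 to 54.0% ± 0.618 (SD, n = 3). The change of log2(BY/RM) was -0.50 ± 0.13 (edgeR adjusted p = 0.00849), while the level of both alleles together fell by 1.47 on the log2 scale. Both SNVs with the most reads moved this way, from 63.1% to 55.6% at one (1481 and 387 reads at 0 and 42 min) and from 61.2% to 47.2% at the other (289 and 72 reads). The call was lost without culture 1 (-0.43, edgeR adjusted p = 0.142), without culture 3 (-0.48, 0.0997), with time as a factor (-0.46, 0.0505) and without the 0 min libraries (-0.46, 0.125). RPL14A shares 20.2% of its 50-base stretches with its copy RPL14B, which held 300 reads and was not tested.

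Deep members gave narrow values near 0. The change was 0.03 ± 0.07 for RPL5, -0.08 ± 0.07 for RPL25, 0.08 ± 0.07 for RPL3/YNG1 and 0.03 ± 0.06 for CDS1/RKM3/RPL4A. The last feature sums several genes, and the BY shares of its SNVs with at least 100 reads ran from 19.3% to 77.3%. Its narrow error therefore does not show that every site stayed level. The next members by adjusted p were RPL35A/UFD2 (-0.23 ± 0.09, edgeR adjusted p = 0.138) and RPL35B (0.30 ± 0.12, 0.164). RPL18B had a larger value with a wide error (-0.80 ± 0.40, edgeR adjusted p = 0.30).

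**Figure D4:**
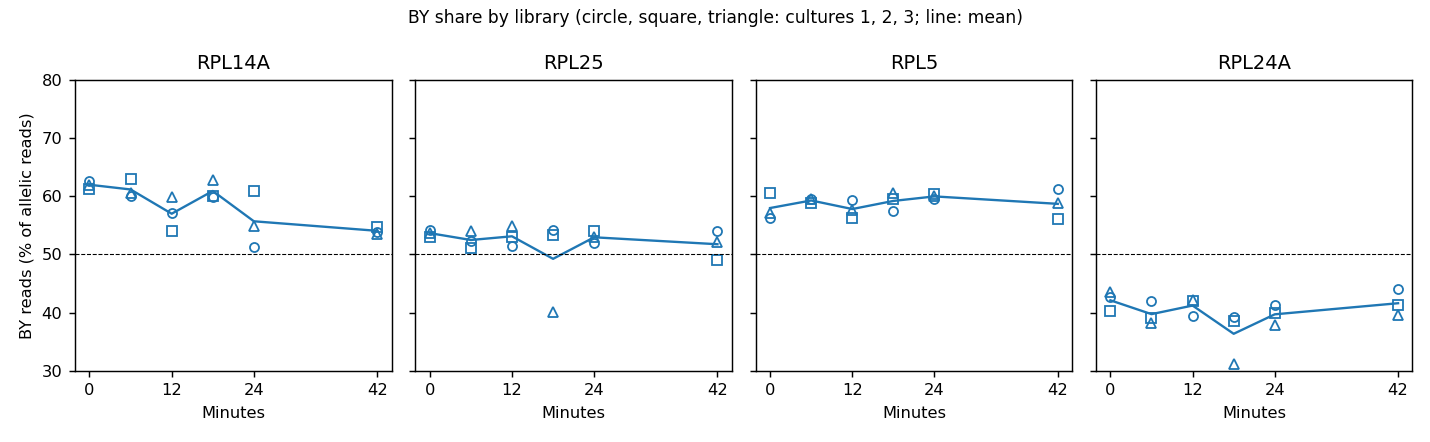
BY reads as % of allelic reads (vertical axis) by library against minutes (horizontal axis) for RPL14A, RPL25, RPL5 and RPL24A. Symbols are the 3 cultures, lines are means and the dashed line is 50%. RPL14A falls from about 62.0% to 54.0%, while the other 3 stay level apart from the shallow library of 18 min.

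Allele differences at 0 min (allele-specific expression, ASE) were called more often. Of 50 members tested 24 differed between BY and RM (48.0%), against 23.0% of 3030 features and 14 of 29 tested features with small-subunit genes (48.3%). Depth, which bears on what can be called, was not matched between these groups. In 12 members BY was higher (10.5% of features) and in 12 RM was higher (12.5%).

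The largest differences towards RM were those of RPL23A, a protein of the subunit interface, and RPL27B. For RPL23A (II, 59822 to 60739) the BY reads at 0 min were 0 of 56, 1 of 72 and 0 of 69, which together allow a BY share of 0.0129 to 2.80% (1 of 197, exact 95% binomial interval, counting error only). Reads of 0 in 56 and in 69 allow shares of up to 5.36% and 4.35%. RPL27B (IV, 1401770 to 1402564) had BY shares of 0.15%, 0.60% and 1.18%. With so few BY reads the fitted ratio depends on the prior count and is not given.

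The pattern in RPL27B was not shared by its SNVs. One SNV had 0.176% BY reads of 7934 over all libraries and the other 43.7% of 158. RPL23A had 1 SNV, with 0.546% BY reads of 732, and 5.6% of its 50-base stretches occur elsewhere in the genome.

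Other members towards RM were RPL40B, with 18.3%, 18.6% and 16.9% BY reads at 0 min (log2 ratio -2.20 ± 0.11), and RPL29/MIN10, with 22.6%, 21.4% and 24.5% (-1.75 ± 0.09). RPL35B had 27.0%, 26.8% and 25.5% (-1.49 ± 0.07). The replicates of each lay close together, and the differences from an even share were far larger than the spread between cultures. RPL29/MIN10 had 1 SNV, and RPL40B had 97.9% of its reads at 1 SNV. Close replicates therefore do not show that other sites of these features would give the same share.

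Towards BY the largest was RPL7A/snR39, a feature with a small nucleolar RNA, at 92.2%, 88.9% and 87.3% BY reads (3.04 ± 0.14). RPL1A, of the mobile stalk at the exit site, had 77.4%, 74.0% and 74.7% (1.60 ± 0.09), RPL13A 65.3%, 67.4% and 67.1% (1.00 ± 0.06) and RPL17B 63.7%, 63.1% and 62.1% (0.76 ± 0.09). RPL1A had 1 SNV, and RPL13A had 98.6% of its reads at 1 SNV. RPL18B had 67.7%, 68.2% and 63.0% (0.94 ± 0.24, edgeR adjusted p = 0.0064). That call was lost with DESeq2 (0.97, adjusted p = 0.413) and without culture 2 (0.87, edgeR adjusted p = 0.0799).

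Copies limit several of these values. Of the 50-base stretches of RPL1A 81.0% occur elsewhere in the genome, of RPL35B 35.2%, of RPL7A 24.2%, of RPL18B 8.1% and of RPL40B 6.8%. For RPL29, RPL17B and RPL27B the share was 0.0%. These values stand beside the allele differences, and their part in them was not tested.

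SNVs of 1 feature often disagreed. In CDS1/RKM3/RPL4A the BY share at SNVs with at least 100 reads ran from 19.3% to 77.3%, and its 4 deepest SNVs gave 77.3%, 65.8%, 19.3% and 36.7%. The range was 43.2% to 90.5% in RPL7A/snR39 and 18.3% to 50.4% in RPL35B. In RPL25, by contrast, both deep SNVs gave nearly the same share (52.8% and 53.0%), as did those of RPL26A, whose range was 2.18 percentage points.

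Over the 25 members with at least 2 SNVs of 100 reads the median range was 8.48 percentage points, against 12.7 in 2384 other features. Of 158 member SNVs with at least 100 reads, 10 (6.33%) lay under 30% or over 70% BY, against 4.93% of such SNVs elsewhere. The difference between members and other features was not tested.

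**Figure D5:**
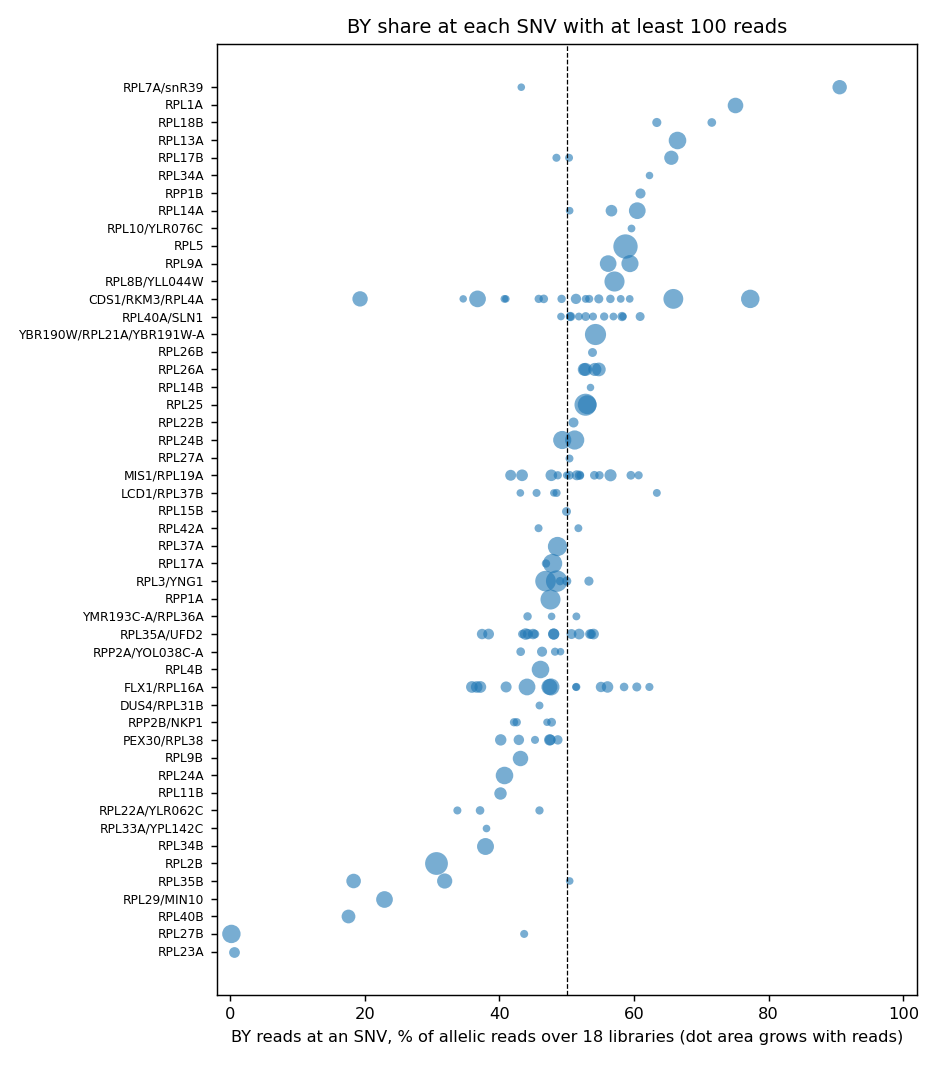
BY share (horizontal axis, % of allelic reads over 18 libraries) of member SNVs with at least 100 reads (1 feature left out), 1 row per feature ordered by the pooled share of these SNVs, larger dots for more reads. Most SNVs lie around the dashed line at 50%, and features such as CDS1/RKM3/RPL4A, RPL7A/snR39, RPL27B and RPL35B spread widely.

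Since most members fell, their promoters were searched for the letters ACCCNNACA on either strand (TGTNNGGGT on the other), a core of the kind of site that Rap1 recognises. In the 500 bases before the start codon 36 of 81 genes (44.4%) held a match, against 328 of 6025 promoters (5.44%). This pattern and window were picked after 28 combinations of 7 patterns and 4 windows had been counted, several of them nested in each other, in which from 2.47% to 55.6% of members matched, 1.08 to 20.5 times the share of all promoters. A match is a string of letters and not a shown binding site. Stretches of 61 bases around the match are shown for 2 strong fallers, for the gene called for ASD and for 1 single-copy gene, read 5′ to 3′ on the gene's strand of R64 with the match in capitals.
RPL9A: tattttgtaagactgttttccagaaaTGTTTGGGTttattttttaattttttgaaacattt
RPL40B: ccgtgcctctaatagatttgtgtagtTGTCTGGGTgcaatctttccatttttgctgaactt
RPL14A: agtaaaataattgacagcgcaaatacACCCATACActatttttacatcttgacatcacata
RPL25: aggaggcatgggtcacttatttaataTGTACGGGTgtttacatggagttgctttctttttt

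These stretches lie at chrVII:228605-228665 (minus strand), chrXI:618959-619019 (minus strand), chrXI:431470-431530 and chrXV:79924-79984. The matches end 301, 234, 401 and 389 bases before the start codon. Among single-gene members, 14 of the 15 tested with a match and 10 of the 14 without were lower at 42 min. Of all features 39.0% were lower. The median log2 changes with and without a match were close, at -1.05 and -0.99. This split was made after seeing the data and was not tested.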

How the data were processed

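RNA from 18 libraries (6 times in 3 cultures) was analysed. TruSeq v2 libraries of poly(A) RNA were sequenced in 1 lane as 50 bp pairs, per the labels' protocols. This kit does not mark strand, so genes that overlap on opposite strands share their reads. The values are raw counts of reads per SNV and allele, as deposited by the authors, not normalized. Reads had been aligned to both parental genomes separately, duplicates and indels removed, overlapping genes consolidated and poorly mapping sites masked, per the file headers. The submitters' processing notes name BWA 0.5.9, Picard 1.43 and the build sacCer3; R64 is the assembly that sacCer3 stands for. The table of the whole series holds 30497 of the 35952 SNVs of the tables of single libraries, with the same counts at shared SNVs, and no source used here says how the rest were chosen. A read can be counted at several SNVs.

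Counts were summed per feature and library. Changes of level came from edgeR 4.0.16 (R 4.3.3), scaled by TMM, each time being a level of 1 factor. ASD used 36 allele columns with terms for library, allele and allele by time, at least 2 reads of each allele per library on average, and the slope times 42 min. ASE at 0 min, the allele difference, used 6 columns. Pair ratios had 0.5 reads added per copy. Alternatives included DESeq2 1.42.0, other scalings, filters and SNV sets, and libraries left out. Coding sequences were aligned globally. The fits were tested on simulated counts. Python 3.11.15 with numpy 2.4.6 and pandas 2.3.3 gave the tables, and matplotlib 3.10.9 the figures.

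The members, lists and tests were chosen with earlier results of these data known. Values by library are given for the members called for ASD, the 5 largest rises and falls at 42 min, the 5 largest allele differences at 0 min in each direction, single-copy and stalk genes, and pairs with both copies measured; other members were named after their values were seen. Cultures are independent per the labels and each was sampled at every time, so replicate numbers pair libraries: deviations from the time means correlated with a median of 0.159 for the same number (45 pairs of libraries) and -0.0669 for different ones. The 18 pairs of libraries of the same time all differed by more than counting noise (chi-square over its degrees of freedom 1.35 to 8.61). 1 member and its pair are not reported here by name. Counting intervals and limits cover counting error only.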

Additional observations from a re-analysis of the deposited data

Results flagged for a closer look

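4 members had reads only in the tables of the single libraries and were in none of the comparisons of the table of the whole series. Over 18 libraries YLR339C/RPP0 held 37072 allelic reads, RPL28/YGL102C 22567, RPL36B/YPL250W-A 17763 and RPL31A 175. They were marked because these are signals in data outside the main measurement, above what a count of 0 would allow. RPP0 is the base of the stalk and RPL28 is encoded once. The BY share was 42.9% in YLR339C/RPP0, 44.9% in RPL28/YGL102C and 50.9% in RPL36B/YPL250W-A, and all 175 reads of the only SNV of RPL31A were BY. Groups of 3 libraries were not searched for outliers.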

How the results depend on the processing

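Counts of called members stayed within 1.5 times of those above except as follows. At 6 min 3 members became 1 with DESeq2, 1 with a mean of at least 100 reads, 1 on plain library totals and 0 with the deepest SNV of each feature (edgeR; 1 of 36 at an unadjusted p under 0.05), and 1 to 3 with a culture left out. At 12 min 8 became 13 with a replicate block and 5 to 12 with a culture left out. At 18 min 23 became 11 to 26 with a culture left out. For ASD 1 became 2 with all SNVs (RPL28/YGL102C rose by 0.27), 0 without the 0 min libraries and 0 to 1 with a culture left out (edgeR; 3 to 4 at an unadjusted p under 0.05 where the count was 0), while DESeq2 on all libraries called 1. With time as a factor the 1 member called was RPL35A/UFD2 (-0.31) in place of RPL14A. Of the 6 pairs, 2 reached the smallest p, and 4 had the same sign in all cultures when paired (replicate block, sign flips, smallest p 0.25), which is another criterion.

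The sign reversed in the uncalled RPL27 pair without culture 2 (0.05) or 3 (0.23), against -0.56 without culture 1, and in RPL40A/SLN1 at 12 min with all SNVs (0.08, not called); the cause was not tested. RPL9B passed at 42 min also with the deepest SNV (-0.45) and the replicate block (-0.32). Over the pairs and the members taken by the naming rule, at 42 min, for ASD and for ASE, 475 alternative values kept direction and call, 6 were called in addition, 6 lost the call and 2 reversed; changes at earlier times are not in these counts. The replicate block changed no other member's call at 42 min or for ASD. Members with few reads limit what can be seen: 15 of 61 could not be tested.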

Other observations

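SNVs of 1 feature with many and with few reads did not always change together. In RPL35B the 2 deepest SNVs went from 1769 reads over 3 libraries at 0 min to 789 at 42 min, while the other 7, all much shallower, went from 106 to 138. In RPL26A, a gene of the tunnel exit, 4 deep SNVs went from 2105 to 816 reads and 9 shallow ones from 61 to 7. These features and the split by depth were chosen after the values were seen, and SNV positions were not used here.

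The members seen only in the tables of single libraries were 4 in number. YLR339C/RPP0 had 8495 reads over 3 libraries at 0 min and 3977 at 42 min, RPL28/YGL102C 5645 and 1690, and RPL36B/YPL250W-A 3888 and 2172.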
